A study of Rattus norvegicus with 12 samples.

Results

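Interleukin-1 (IL-1) family genes and the ST2 receptor were followed through siRNA knockdown of Yap and Wwtr1 in cultured rat cardiac fibroblasts. The set held 10 genes, Il1rl1, Il33, Il1rap, Il1r1, Il1rn, Il1a, Il1b, Il18, Il6 and Il11, and all 10 were found by symbol among the 12271 genes of the normalized count table. Il1rl1, which encodes ST2, was selected on its decline in these same libraries. Its values are therefore given as a description, without a test, and the other 9 genes were read from a fit across all genes tested.

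Cells were labelled ventricular cardiac fibroblasts of Sprague Dawley rats at postnatal day 2, although the design text of the series calls them cardiac myocytes, and all of them were transfected at 25 nM per siRNA. The labels put the harvest 48 hours after transfection, whereas the study's methods count 48 hours from a change of medium on the day after transfection. The negative siRNA group received a mix of universal control siRNAs, the Yap siRNA group 2 siRNAs against Yap, and the Wwtr1 siRNA group 2 siRNAs against Wwtr1. The double knockdown group is titled as both targets together, although its siRNA label names only the Wwtr1 siRNAs. Each group had 3 libraries, 12 in all. The study repeated the procedure with separate litters to reach 3 replicates, so libraries with the same number may share a litter, which the labels do not state. Knockdown in culture is partial and transient, and a primary culture can hold other heart cells beside fibroblasts.

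IL-1 family cytokines are released by stressed or dying cells and by macrophages, and they act through paired receptor chains that share a signalling domain with Toll-like receptors. IL-33 binds ST2, which recruits the accessory chain encoded by Il1rap, and the complex signals through Myd88 to NF-kB. A secreted form of ST2 binds IL-33 without signalling and is measured in blood as a marker of cardiac strain. Read counts per gene do not separate the secreted from the membrane form. IL-6 and IL-11 belong to another family, which signals through the shared chain gp130, and both are made by activated fibroblasts.

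The table holds counts divided by a size factor for each library, here called normalized counts. Library totals lay between 33.9 and 41.1 M count units, and double knockdown replicates 2 and 3 held the most. The targeted genes fell in the groups named for them. Relative to negative siRNA, Yap siRNA left 17.7% of mean Yap1 and the double knockdown 29.9%, where replicate 3 kept 1474 normalized counts against 713 and 739 in the other libraries. Wwtr1 siRNA left 23.7% of mean Wwtr1, and the double knockdown 36.1%. Of the fibroblast marker list, all 12 genes were expressed, and 4 rose and 3 fell in the double knockdown, where 32.8% of all genes tested were called. Of 10 cardiomyocyte markers 9 were measured. The fibroblast markers summed to at least 3150380 normalized counts in every library and the cardiomyocyte markers to at most 93840, without a correction for gene length. Because these are bulk cultures, fewer cells of a type and less RNA per cell cannot be told apart.

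Il1rl1 was lower in every library of every knockdown group than in any negative siRNA library. Negative siRNA cells held 5335, 6672 and 8243 normalized counts in replicates 1, 2 and 3, with a mean of 6750 ± 1455 (SD, n = 3). Yap siRNA cells held 1821, 2383 and 3080, with a mean of 2428 ± 631. Wwtr1 siRNA cells held 2524, 3943 and 4798, with a mean of 3755 ± 1149. All 3 groups kept a wide internal spread, in which replicate 1 was always the lowest library and replicate 3 the highest. The double knockdown held 705, 1168 and 1345, with a mean of 1073 ± 331, which was below every library of the single knockdowns.

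The order of the group means of Il1rl1 was negative siRNA, Wwtr1 siRNA, Yap siRNA and double knockdown. Only the middle neighbours overlapped: the highest Yap siRNA library, 3080, exceeded the lowest Wwtr1 siRNA library, 2524. On the log2 scale the differences from negative siRNA were -1.49 (Yap siRNA), -0.87 (Wwtr1 siRNA) and -2.68 (double knockdown), each with an SE of 0.29 from the fit. These comparisons share the same negative siRNA libraries. Set against the negative siRNA library of the same number, Il1rl1 was at 34.1%, 35.7% and 37.4% with Yap siRNA. It was at 47.3%, 59.1% and 58.2% with Wwtr1 siRNA. The double knockdown libraries, which were not taken as paired, were at 13.2%, 17.5% and 16.3%. The ratios within a number thus varied less than the levels did. The single effects of both siRNAs added to -2.36 on the log2 scale, beside the observed -2.68, and the difference between them was -0.32 (SE 0.41).

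**Figure D1:**
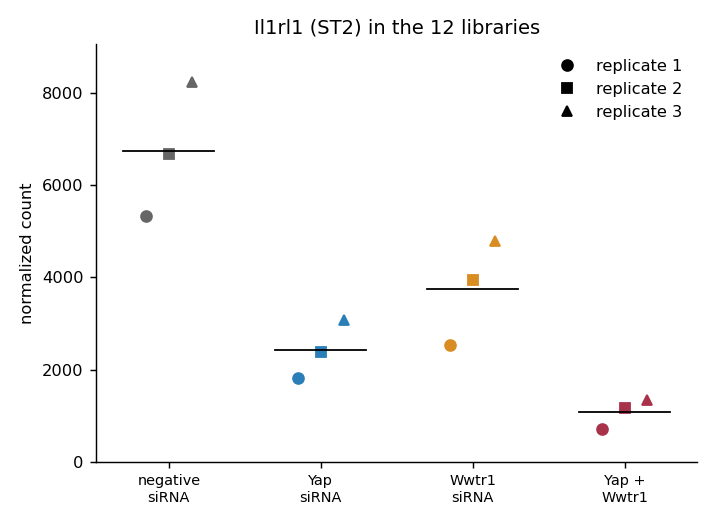
Normalized counts of Il1rl1 (vertical axis) in the 3 libraries of each of the 4 siRNA groups (horizontal axis). Symbols mark the replicate number and lines the group means; the negative siRNA libraries lie between 5335 and 8243 and the double knockdown libraries between 705 and 1345.

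Promoter windows were examined for Il1rl1 and for Il33, Il1r1 and Il6, the other members that changed in the double knockdown, because Yap and Wwtr1 act on DNA through partner factors. The windows run from 250 bases before to 50 after each RefSeq start on the GRCr8 assembly, which is not the build used for the counts. Capitals mark matches, on either strand, to CATTCC (the core bound by TEAD factors, the main partners of Yap and Wwtr1), TGANTCA (AP-1), GAAANNGAA (interferon response), GGGNNTTCC (NF-kB, short form) and the 10-letter kappaB consensus of NF-kB, which was added after the windows had been read. Sequences are written 5′ to 3′ on the strand of the gene.
Il1rl1, chr9:50203388-50203687, plus strand: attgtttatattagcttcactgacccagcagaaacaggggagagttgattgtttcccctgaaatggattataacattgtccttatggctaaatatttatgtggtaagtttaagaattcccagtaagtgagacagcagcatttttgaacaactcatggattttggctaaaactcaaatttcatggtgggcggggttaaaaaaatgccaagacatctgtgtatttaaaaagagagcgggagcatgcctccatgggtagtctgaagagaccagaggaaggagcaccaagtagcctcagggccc
Il33, upstream window, chr1:237115323-237115622, plus strand: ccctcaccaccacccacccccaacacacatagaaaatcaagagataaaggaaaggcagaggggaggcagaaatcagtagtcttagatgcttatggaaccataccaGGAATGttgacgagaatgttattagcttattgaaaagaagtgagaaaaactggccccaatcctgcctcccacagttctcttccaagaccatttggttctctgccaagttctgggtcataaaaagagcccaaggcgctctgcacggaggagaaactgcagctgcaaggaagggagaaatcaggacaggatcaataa
Il33, downstream window, chr1:237134696-237134995, plus strand: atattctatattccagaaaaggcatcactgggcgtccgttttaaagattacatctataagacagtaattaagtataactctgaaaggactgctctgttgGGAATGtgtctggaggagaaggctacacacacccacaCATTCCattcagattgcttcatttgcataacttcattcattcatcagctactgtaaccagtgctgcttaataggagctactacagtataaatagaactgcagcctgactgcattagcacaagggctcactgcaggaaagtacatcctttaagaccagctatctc
Il1r1, chr9:50034133-50034432, plus strand: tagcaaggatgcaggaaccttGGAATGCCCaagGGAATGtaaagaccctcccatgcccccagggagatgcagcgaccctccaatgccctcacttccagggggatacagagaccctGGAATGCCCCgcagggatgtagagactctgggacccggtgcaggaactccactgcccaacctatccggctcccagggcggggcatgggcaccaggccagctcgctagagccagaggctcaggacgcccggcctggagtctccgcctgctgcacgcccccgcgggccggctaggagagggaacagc
Il6, chr4:5894526-5894825, minus strand: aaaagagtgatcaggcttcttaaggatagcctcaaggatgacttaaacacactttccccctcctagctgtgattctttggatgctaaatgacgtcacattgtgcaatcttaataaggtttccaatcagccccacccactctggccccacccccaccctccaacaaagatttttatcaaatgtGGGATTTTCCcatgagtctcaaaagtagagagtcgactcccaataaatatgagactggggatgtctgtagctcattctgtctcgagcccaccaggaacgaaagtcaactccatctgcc

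The Il1rl1 window held none of these letters, and the Il6 window held 1 match to the kappaB consensus and no other. Il33 has a pair of annotated windows, and both held the TEAD core, once in the upstream and 2 times in the downstream window. The Il1r1 window held 3 TEAD cores, of which 2 overlap matches to the short NF-kB letters and 1 of these also matches the kappaB consensus. Over all 10 members there were 12 windows, of which 3 held the TEAD core, 3 AP-1, 2 the interferon response letters, 3 the short NF-kB letters and 4 the kappaB consensus. Il1rap has a pair of overlapping windows that hold the same interferon response, NF-kB and kappaB matches, so by gene the counts were 2 for TEAD, 3 for AP-1, 1 for the interferon response, 2 for NF-kB and 3 for kappaB. Of all 33469 windows of this length, 14.2% held the TEAD core, 7.33% AP-1, 9.71% the interferon response letters, 5.92% the short NF-kB letters and 7.51% the kappaB consensus. A match describes the letters only.

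The ligand of ST2 moved the other way. Il33 encodes IL-33, an alarmin stored in the nucleus and released on damage. It was at 62.6, 73.0 and 59.9 normalized counts with negative siRNA, and at 158, 237 and 751 in the double knockdown. All 3 double knockdown libraries lay above all 3 controls, and replicate 3 stood far above the other 2. The log2 difference was 2.21 (SE 0.44, limma adjusted p 0.00252), and it was 1.56 (adjusted p 0.00103) without double knockdown replicate 3. Il33 was at 126, 153 and 138 with Yap siRNA and at 77.2, 52.0 and 82.3 with Wwtr1 siRNA. The Yap siRNA libraries were above every control, whereas the Wwtr1 siRNA libraries overlapped the controls. The log2 difference with Yap siRNA was 1.08 (SE 0.44), which missed the threshold in the fit of all libraries (limma adjusted p 0.194). With the replicate number as a block and the double knockdown libraries left out, the limma adjusted p was 0.0128 for Yap against negative siRNA and 0.0156 for Yap against Wwtr1 siRNA.

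The receptor chains differed among themselves. Il1r1 encodes the signalling receptor for IL-1α and IL-1β. It was at 2511, 2805 and 2410 normalized counts with negative siRNA and at 3994, 3024 and 3041 in the double knockdown. Every double knockdown library exceeded every control, by a log2 difference of 0.37 (SE 0.10, limma adjusted p 0.0176). The call was lost when negative siRNA replicate 1 or 3 or double knockdown replicate 1 was left out, with adjusted p values between 0.0513 and 0.0717, and when the compared groups were fitted alone. With Yap siRNA it was at 2979, 3231 and 3109, a log2 difference of 0.27 (limma adjusted p 0.17, or 0.0219 with the replicate block and without the double knockdown libraries). Il1rap encodes the accessory chain that ST2 and IL-1 receptors share. It was at 262, 445 and 492 normalized counts with negative siRNA and at 431, 556 and 283 in the double knockdown. These groups overlapped, and no comparison passed the test (log2 differences of -0.13, 0.26 and 0.08 for Yap siRNA, Wwtr1 siRNA and double knockdown).

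The agonists and the antagonist of the IL-1 receptor were low and variable. Il1a was at 19.5, 23.0 and 41.3 normalized counts with negative siRNA and at 11.9, 0 and 146 in the double knockdown. Il1b was at 35.9, 17.0 and 57.9 with negative siRNA and at 0, 16.7 and 74.6 in the double knockdown. Groups overlapped for both genes and neither passed the test, with log2 differences of -1.15 (SE 1.38, limma adjusted p 0.561) and -1.62 (SE 1.80, adjusted p 0.529) that rest on the libraries listed at 0. Il1b was also listed at 0 in 2 of 3 Wwtr1 siRNA libraries, with 107 in replicate 3. Il1rn encodes the secreted antagonist that occupies the IL-1 receptor without signalling. It was at 127, 281 and 187 with negative siRNA and at 124, 306 and 1365 in the double knockdown. Replicates 1 and 2 lay just outside the range of the controls and replicate 3 far above it, and the log2 difference of 0.98 (SE 0.68) did not pass the test (limma adjusted p 0.29). It was 0.05 (adjusted p 0.944) without double knockdown replicate 3 and passed without double knockdown replicate 1 (log2 difference 1.77, adjusted p 0.0424).

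Il18 encodes a cytokine related to IL-1β that is matured by the same protease. It was at 131, 111 and 123 normalized counts with negative siRNA, at 172, 126 and 85.9 with Yap siRNA and at 41.7, 62.2 and 70.1 with Wwtr1 siRNA. All 3 Wwtr1 siRNA libraries lay below every control. The log2 difference was -1.09 (SE 0.57, limma adjusted p 0.273) in the fit of all libraries, and the adjusted p was 0.0236 with the replicate block and without the double knockdown libraries. Il18 was at 35.8, 36.0 and 217 in the double knockdown. Replicates 1 and 2 were below every control and replicate 3 above, and the log2 difference of -0.88 did not pass the test (limma adjusted p 0.259). Without double knockdown replicate 3 it was -1.73 (SE 0.32, limma adjusted p 0.00167), and with that library left out Wwtr1 against negative siRNA also passed (adjusted p 0.0298).

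The gp130 cytokines went different ways. Il6 encodes IL-6, an inflammatory cytokine made by many stressed cells. It was at 0, 19.0 and 16.5 normalized counts with negative siRNA, at 29.7, 30.0 and 6.28 with Yap siRNA and at 11.5, 32.7 and 38.6 with Wwtr1 siRNA. Cells with both siRNAs were at 146, 97.0 and 97.4. The double knockdown libraries lay above all others. The log2 difference was 3.99 (SE 1.02, limma adjusted p 0.0107), and its size depended on the pseudocount, at 5.14 with 0.1 and 2.62 with 10, since 1 control is listed at 0. Without that control, negative siRNA replicate 1, it was 2.59 (adjusted p 0.0172). Il11 encodes IL-11, a cytokine known for its part in cardiac fibrosis. It was at 41.0, 41.0 and 33.1 with negative siRNA and at 15.9, 28.4 and 29.0 in the double knockdown. The groups did not overlap, but the log2 difference of -0.67 (SE 0.44) did not pass the test (limma adjusted p 0.265).

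**Figure D2:**
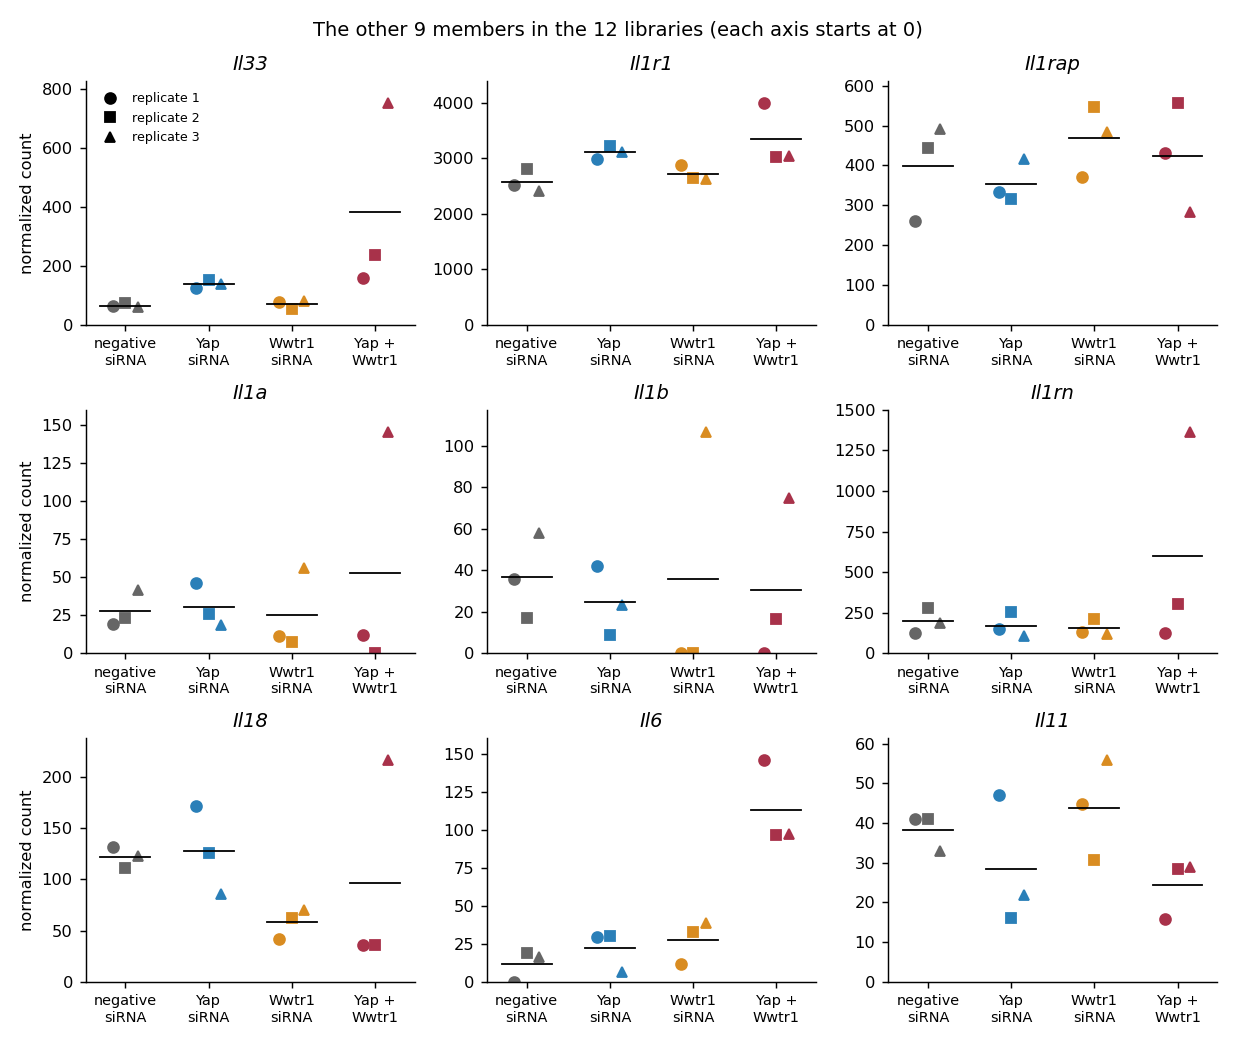
Normalized counts (vertical axes, each from 0) of the other 9 members in the 3 libraries of each siRNA group, with symbols for the replicate number and lines for group means. Double knockdown replicate 3 is the highest library for Il33, Il1a, Il1rn and Il18, whereas the 3 double knockdown libraries of Il6 lie between 97.0 and 146.

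Among the 9 members other than Il1rl1, 3 were called in the double knockdown (Il33, Il6 and Il1r1), all higher. Of all 11871 genes tested, 32.8% were called there, 17.1% higher and 15.6% lower, so the share of members called was close to that of all genes. The libraries of the double knockdown and negative siRNA did not overlap for 4 of the 9 members, which adds Il11, and for 44.6% of all genes. Yap siRNA called 0 of the 9 members by limma (2 at an unadjusted p under 0.05) against 4.8% of all genes, and Wwtr1 siRNA 0 (0 unadjusted) against 8.96%. The unadjusted shares of all genes were 19.7% with Yap siRNA and 23.9% with Wwtr1 siRNA. Yap siRNA against Wwtr1 siRNA also called 0 members (1 unadjusted) against 8.79% of all genes (24.4% unadjusted). The interaction tests whether the double knockdown departs from the added single effects on the log2 scale. It called 0 members (0 unadjusted) against 1.03% of all genes (14.0% unadjusted). With the replicate block and without the double knockdown libraries, 2 members were called for Yap siRNA (Il33 and Il1r1), 1 for Wwtr1 siRNA (Il18) and 2 between Yap and Wwtr1 siRNA (Il33 and Il18). That fit called 16.3%, 21.7% and 23.0% of all 11795 genes tested in the same comparisons, so these member counts were also close to the share of all genes.

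**Figure D3:**
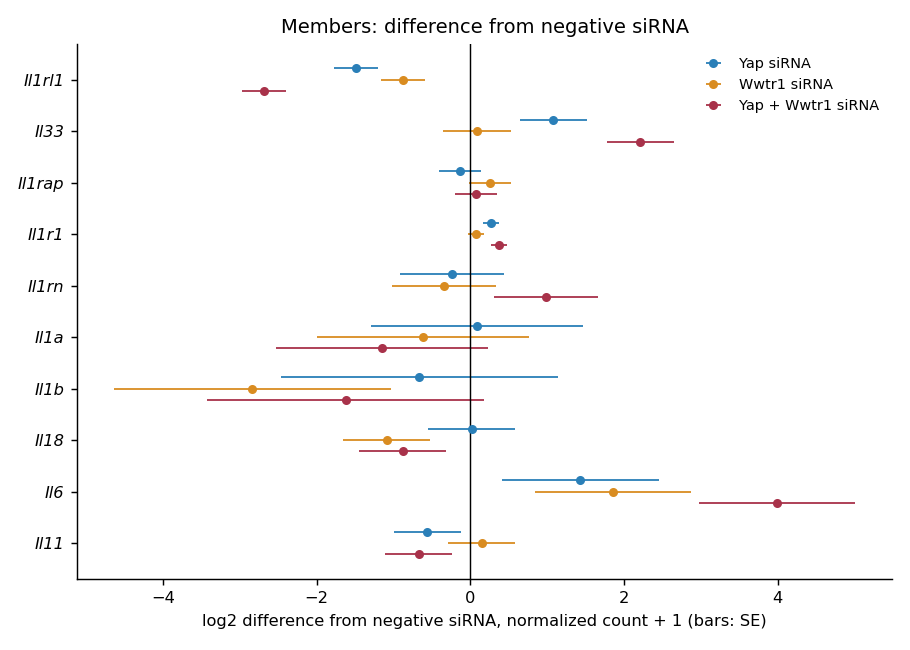
Log2 difference from negative siRNA (horizontal axis, log2 of normalized count plus 1; bars are SE from the fit) for the 10 members (vertical axis) with Yap siRNA, Wwtr1 siRNA and both. Il1rl1 has the lowest double knockdown value, -2.68, and Il6 the highest, 3.99; the wide bars of Il1a and Il1b come with libraries listed at 0.

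Markers of macrophages, a main source of several IL-1 family cytokines, varied between libraries. All 13 markers were expressed, and their summed level lay between 24009 and 34521 normalized counts with negative siRNA, between 20429 and 30172 with Yap siRNA and between 12648 and 21163 with Wwtr1 siRNA. With both siRNAs it was 7515, 14951 and 52069. Replicate 3 thus held the highest sum of the 12 libraries and replicate 1 the lowest. Il1rl1, Il33, Il1rn, Il1b, Il18 and Il11 had the same order over the 3 double knockdown libraries. For Il18, replicates 1 and 2 were nearly equal (35.8 and 36.0). The marker sums were 34521, 27026 and 24009 in negative siRNA replicates 1, 2 and 3. They were 30172, 24363 and 20429 in the Yap siRNA libraries. Il1rl1 ran in the opposite order within both of these groups, lowest in replicate 1 and highest in replicate 3. Within the Wwtr1 siRNA libraries the sums were 12648, 21163 and 18580, beside Il1rl1 at 2524, 3943 and 4798. There replicate 1 was lowest for the sum and for Il1rl1, and the order of replicates 2 and 3 differed. Between double knockdown and negative siRNA, 0 of the 13 markers rose and 1 fell (Cx3cr1, a chemokine receptor of resident macrophages, named here after its value was seen), where 32.8% of all genes were called, with a median log2 difference of -0.77. Without replicate 3, 12 of 13 were called lower, beside 34.2% of all genes called, and the median was -1.57. With the replicate block and without the double knockdown libraries, 10 of 13 were called lower with Wwtr1 siRNA (21.7% of all genes called) and 3 with Yap siRNA (16.3%). The part of these cells in the values of Il1rl1, Il18, Il1rn, Il1a, Il1b, Il33 and Il11 was not tested.

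**Figure D4:**
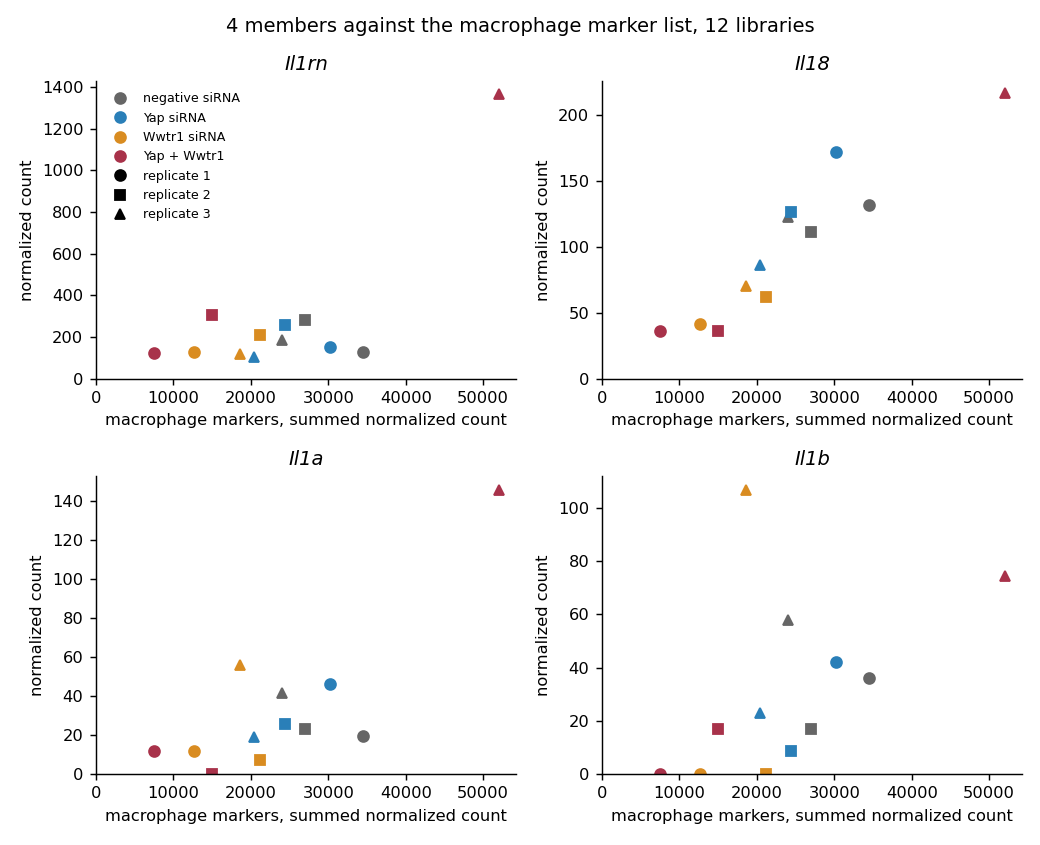
Normalized counts of Il1rn, Il18, Il1a and Il1b (vertical axes) against the summed normalized count of 13 macrophage markers (horizontal axes) in the 12 libraries, with colours for the siRNA group and symbols for the replicate number. Double knockdown replicate 3 has the highest marker sum, 52069, and the highest Il1rn, Il18 and Il1a; Il18 is 35.8 in the library with the lowest sum, 7515.

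Other cells were less variable or thinly marked. Of mast cell markers, whose cells carry ST2, 3 of 9 were measured. Kit and Gata2 rose in the double knockdown, where 17.1% of all genes were called higher, and Hdc was not called. Mean Hdc was 25.8 normalized counts with negative siRNA and 37.4 in the double knockdown. Cpa3, Tpsab1, Tpsb2, Cma1, Fcer1a and Ms4a2 were not measured. Of lymphocyte markers 4 of 14 were measured and 3 were tested. Only Gata3 was called in the double knockdown, where it fell by 1.96 on the log2 scale (limma adjusted p 6.23e-05). There 15.6% of all genes were called lower. Endothelial markers rose for 4 of 10 genes and cardiomyocyte markers for 2 of 9, beside 17.1% of all genes called higher. Their median log2 differences were 0.76 and 0.61. Without double knockdown replicate 3, 2 of 8 endothelial genes and 1 of 9 cardiomyocyte genes rose, with medians of 0.37 and 0.68. In that fit 34.2% of all genes were called in either direction. Some endothelial genes reached a mean of 10 normalized counts, the limit for testing, only with that library. The endothelial counts and medians of these fits therefore cover different genes. Interferon-induced genes rose in every knockdown group, namely 22 of 23 genes in each single knockdown group and 23 when both siRNAs were given, beside 4.8% (Yap siRNA), 8.96% (Wwtr1 siRNA) and 32.8% (both) of all genes called. Their summed level was at most 20850 normalized counts with negative siRNA and at least 158502 in the double knockdown, and its part in the members' values was not tested.

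The rest of the IL-1 receptor family was sparse. Of 13 further ligands, receptors and binding proteins, 5 were measured and 3 were tested. Il18bp encodes a secreted protein that captures IL-18. It was at 239, 254 and 214 normalized counts with negative siRNA, at 795, 613 and 305 with Wwtr1 siRNA and at 1281, 1300 and 1470 in the double knockdown. All libraries of both knockdown groups lay above the controls, with a log2 difference of 1.17 (SE 0.32, limma adjusted p 0.0427) with Wwtr1 siRNA and 2.51 (SE 0.32, adjusted p 0.000159) in the double knockdown. Leaving out 1 library at a time removed the Wwtr1 siRNA call in 8 of 12 fits. Il1rl2 encodes the IL-36 receptor and neighbours Il1rl1. It was at 1294, 1778 and 1896 with negative siRNA and at 667, 766 and 491 in the double knockdown, all below the controls, a log2 difference of -1.37 (SE 0.22, limma adjusted p 0.000614). In the paired fit with the replicate block, Yap against negative siRNA was also called for Il1rl2 (log2 difference -0.68, limma adjusted p 0.000116) and Il18bp (0.72, adjusted p 0.0283). Il1r2, a decoy receptor for IL-1, did not pass the test (log2 difference -0.37). Il18r1 and Sigirr were at most 15.2 normalized counts in any library.

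The receptor genes lie side by side. On chromosome 9 of GRCr8 the protein-coding order is Il1r2, H3f3al3, Il1r1, Il1rl2, Il1rl1, Il18r1 and Il18rap, so 6 receptor genes lie close together. Along it the log2 differences between double knockdown and negative siRNA were -0.37 for Il1r2, 0.37 for Il1r1, -1.37 for Il1rl2 and -2.68 for Il1rl1. The called neighbours Il1r1 and Il1rl2 took opposite signs.

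Among genes that mature IL-1 family cytokines, most did not pass the test. Of 13 tested, 3 rose, 2 fell and 8 were not called in the double knockdown, where 32.8% of all genes were called, with a median log2 difference of -0.09 beside 0.0035 over all genes. Nlrp1a, an inflammasome sensor, rose by 0.65 (limma adjusted p 0.00347), and Casp8, an initiator caspase, rose by 0.63 (adjusted p 0.0156). Nek7, which helps activate the NLRP3 inflammasome, fell by 0.40 (adjusted p 0.0352), and Capn2, a calpain protease, fell by 0.40 (adjusted p 0.00144). The third riser was Ninj1. Casp4 rose by 0.29 with Wwtr1 siRNA (adjusted p 0.0443) and Nlrp1a by 0.52 with Yap siRNA (adjusted p 0.0495), and most fits with 1 library removed kept neither call.

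Among signalling genes downstream of the receptors, most were also not called. Of 23 tested, 7 rose, 3 fell and 13 were not called in the double knockdown, beside 17.1% of all genes higher and 15.6% lower, with a median log2 difference of 0.14. Nfkbia, the inhibitor that NF-kB induces, was at 1204, 1810 and 1650 normalized counts with negative siRNA and at 2672, 2803 and 2493 in the double knockdown. The groups did not overlap, and the log2 difference was 0.79 (SE 0.22, limma adjusted p 0.0148). Nfkbiz, a nuclear cofactor of NF-kB, rose by 0.63 (adjusted p 0.00775). Chuk, a kinase of the complex that releases NF-kB, fell by 0.42 (adjusted p 0.00629), and Mapk8, the stress kinase JNK1, fell by 0.40 (adjusted p 0.014). In the fit of all libraries limma called 0 of the 23 in either single knockdown (6 and 4 at an unadjusted p under 0.05 for Yap and Wwtr1 siRNA), where 4.8% and 8.96% of all genes were called and 19.7% and 23.9% had an unadjusted p under 0.05. With the replicate block and without the double knockdown libraries, 2 were higher and 2 lower with Yap siRNA, and 1 was higher and 1 lower with Wwtr1 siRNA, beside 16.3% and 21.7% of all genes called.

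Genes that IL-1 is known to induce had the largest median of the 5 pathway lists in the double knockdown, 1.20 on the log2 scale. Of 17 tested, 8 rose, 1 fell and 8 were not called, beside 17.1% of all genes higher and 15.6% lower. Vcam1, an adhesion molecule for leukocytes, was at 509, 781 and 241 normalized counts with negative siRNA and at 3069, 2644 and 6677 in the double knockdown. Lcn2, the secreted iron-binding protein lipocalin, was at 55.4, 259 and 42.4 with negative siRNA and at 473, 674 and 898 in the double knockdown. Neither gene overlapped between groups, with log2 differences of 3.05 (SE 0.60, limma adjusted p 0.00243) and 2.94 (SE 0.57, adjusted p 0.00216). Csf1, the growth factor of macrophages, fell by 0.30 with Wwtr1 siRNA (adjusted p 0.0413) and by 0.30 in the double knockdown (adjusted p 0.0156). Yap siRNA called 0 of the 17 (median 0.14, 4.8% of all genes called) and Wwtr1 siRNA only Csf1 (median -0.18, 8.96%). With the replicate block and without the double knockdown libraries, Vcam1 was called with Yap siRNA, beside 16.3% of all genes. Its log2 difference was 1.28 (limma adjusted p 0.0352).

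Of 17 genes of the IL-6 and IL-11 pathway (cytokines, receptors and signalling genes), 6 rose, 1 fell and 10 were not called in the double knockdown, where 32.8% of all genes were called, with a median log2 difference of 0.29. Lifr, a receptor chain that pairs with gp130, was at 357, 459 and 245 normalized counts with negative siRNA and at 1069, 549 and 999 in the double knockdown. These groups did not overlap (log2 difference 1.29, SE 0.29, limma adjusted p 0.00593). Clcf1, a cytokine of the same family, rose by 0.89 with Wwtr1 siRNA (adjusted p 0.00292) and by 1.04 in the double knockdown (adjusted p 0.000242). Ptpn11, the phosphatase SHP2, fell by 0.23 (adjusted p 0.0397), a call that 8 of 12 fits with 1 library removed did not keep. Lif, a gp130 cytokine, rose by 0.92 with Wwtr1 siRNA (adjusted p 0.0353) and was -0.47 in the double knockdown, which did not pass the test. Stat3, the transcription factor that IL-6 activates, fell by 0.22 with Wwtr1 siRNA (adjusted p 0.0421) and rose by 0.29 in the double knockdown (adjusted p 0.00357).

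**Figure D5:**
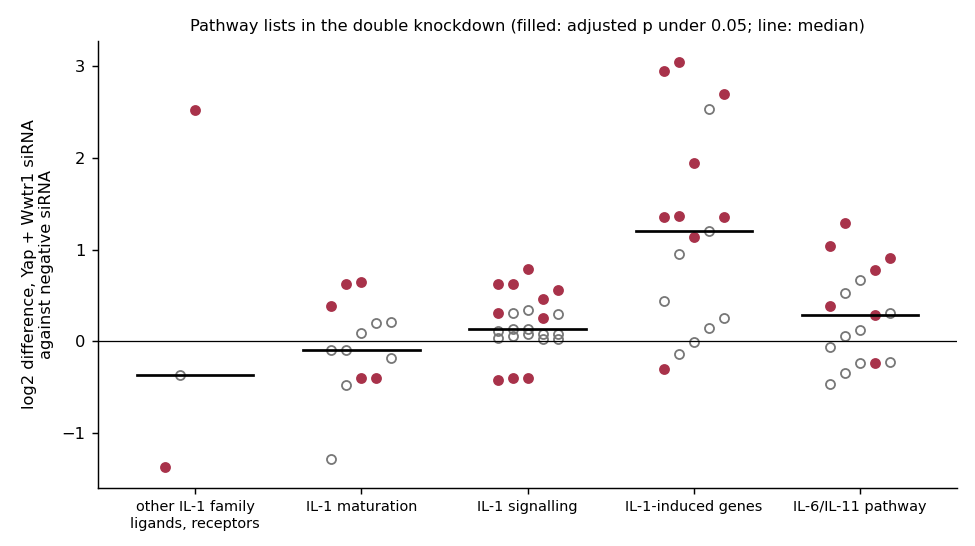
Log2 difference between double knockdown and negative siRNA (vertical axis) for every tested gene of 5 pathway lists (horizontal axis), with filled points for an adjusted p under 0.05 and lines for medians. The IL-1-induced genes have the highest median, 1.20, and the maturation genes lie around 0.

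Genes with a pattern most like that of Il1rl1 were sought among 10101 genes averaging 100 normalized counts or more. Likeness was Pearson's r of log2 values over the 12 libraries, which share group, size factor and replicate number, and it is given without a test. Pim3, a serine/threonine kinase, had an r of 0.987 and fell from a mean of 1283 normalized counts with negative siRNA to 526 in the double knockdown. Tspan17 (r 0.974), Selenoi (0.973), Coq10b (0.972) and Jag1, a Notch ligand (0.972), followed. Jag1 had the largest difference of these, with group means of 8604, 4461, 5665 and 2365 for negative siRNA, Yap siRNA, Wwtr1 siRNA and double knockdown, in the same order as Il1rl1. Without the 2 libraries farthest from the median of Il1rl1, r was 0.981 for Pim3 and 0.972 for Jag1. Over deviations from the group means, where the siRNA groups no longer contribute, r was 0.890 and 0.739. Both sets of values come from the same 12 libraries on which these genes were picked for a high r. They are therefore not independent of that choice and are no check of it.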

How the data were processed

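RNA of 12 cultures was sequenced in 4 groups of 3, taken from the sample titles. The authors trimmed reads with Trim Galore 0.6.5, aligned them to rn6 with HISAT2, counted genes with StringTie and normalized with DESeq2. The deposited values are a signal, counts divided by a size factor per library, of which 100% were whole multiples of one step per library (tolerance 0.05). Strand use in counting was not given in the sources used here. The authors' comparison tables (means, fold changes, p-values) were not used.

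Values were tested as log2(value + 1) with limma 3.58.1 in R 4.3.3, all libraries in one fit with a variance trend. The 11871 genes that averaged 10 normalized counts or more entered, and two-sided p-values were adjusted by Benjamini-Hochberg over all of them (threshold 0.05). For low genes, differences on this scale can depart from the ratio of group means in either direction, also where a library is listed at 0. Il6 in the double knockdown was 15.9-fold from the log2 difference and 9.59-fold by group means. The steps were tested on simulated data. The members and lists were chosen with earlier results of these data known. Named genes were the members, both targets, up to 2 called genes each way per pathway list in the double knockdown (1 in single knockdowns; mean at least 100, or 10 for the family list) and the 5 genes most like Il1rl1. Ninj1, Kit, Gata2, Hdc, Gata3, Cx3cr1 and Sod2 were named after their values were seen.

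Same-numbered negative, Yap and Wwtr1 siRNA libraries deviated together (9 correlations from 0.104 to 0.276) and were taken as paired; those with double knockdown libraries ran from -0.127 to 0.180. Promoters came from RefSeq (GRCr8).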

Additional observations from a re-analysis of the deposited data

Results flagged for a closer look

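The effect of one siRNA differed with and without the other for 2 of the 73 genes tested in the 5 pathway lists. These calls rest on the interaction term of the fit, which called 1.03% of all genes tested. At an unadjusted limma p under 0.05 were 10 of 23 signalling, 8 of 17 IL-6 and IL-11 pathway and 7 of 17 IL-1-induced genes. So were 2 of 13 maturation and 0 of 3 further family genes, beside 14.0% of all genes. For Stat3 the term was 0.42 in log2 units, with an SE of 0.09 and an adjusted p of 0.045 by limma. It was at 10866, 11202 and 10021 normalized counts with negative siRNA, at 9267, 9234 and 8955 with Wwtr1 siRNA and at 13249, 12546 and 13486 in the double knockdown. With 1 library removed at a time, 11 of 12 fits did not keep the call. Sod2, the mitochondrial superoxide dismutase that NF-kB induces, had a term of 1.37, with an SE of 0.26 and an adjusted p of 0.0311 by limma. It was at 2538, 3494 and 2759 with negative siRNA and at 8088, 6203 and 8308 in the double knockdown, and it did not pass the test in either single knockdown. Of the same 12 fits, 8 did not keep it. No member had a called interaction by limma (0 at an unadjusted p under 0.05, beside 14.0% of all genes).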

How the results depend on the processing

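The log2 difference of Il1rl1, whose direction the choice of the gene fixes, ranged over 16 or 17 alternatives of each comparison from -1.67 to -1.29 with Yap siRNA, -1.07 to -0.61 with Wwtr1 siRNA and -2.87 to -2.41 in the double knockdown. The double knockdown called 3888 genes and 3 members, and these counts stayed within 2746 to 4204 genes and 2 to 4 members. Counts for the other comparisons moved by over 1.5 times, and the cause was not tested. Without the variance trend, Yap siRNA called 294 genes and the interaction 60. With the replicate block over all libraries they called 874 and 231. With the replicate block and without the double knockdown libraries, the paired fit called 1917 genes and 2 members for Yap siRNA, 2559 and 1 for Wwtr1 siRNA, and 2711 and 2 between Yap and Wwtr1 siRNA. It also called 2 of 13 maturation genes for each of the single siRNAs, and 1 (Yap siRNA) and 6 (Wwtr1 siRNA) of 17 IL-6 and IL-11 pathway genes. The block over all libraries changed no member's call. With the compared groups alone, Yap siRNA, Wwtr1 siRNA and their comparison called 1 member each, beside 480, 1288 and 986 genes (4.08%, 10.9% and 8.34% of those tested).

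Leaving out 1 library gave 111 to 766 genes and 0 to 1 members for Yap siRNA, 548 to 1420 and 0 to 1 for Wwtr1 siRNA, and 31 to 160 genes for the interaction. Set against each other, the single knockdowns gave 434 to 1413 genes and 0 to 2 members. The lowest counts came without Yap siRNA replicate 1 or Wwtr1 siRNA replicate 2, and the highest without double knockdown replicate 3.

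Members that turned sign when 1 library was left out had not passed the test in the fit of all libraries. Their log2 ranges with Yap siRNA were -0.41 to 0.045 (Il1rap), -0.57 to 0.056 (Il1rn), -0.26 to 0.40 (Il1a) and -0.22 to 0.28 (Il18, which was -0.0016 under upper-quartile scaling). With Wwtr1 siRNA they were -0.034 to 0.29 (Il33), -0.019 to 0.44 (Il1rap) and -0.041 to 0.38 (Il11). For the double knockdown they were -0.20 to 0.34 (Il1rap), -2.94 to 0.66 (Il1a) and -3.01 to 0.11 (Il1b). Of 1112 alternative values for 55 single-gene differences, 16 turned sign, 105 lost their call and 9 gained one.

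TMM scaling, edgeR and DESeq2 on whole reads were planned and not run. The values were whole multiples of one step in every library, but they were analysed as a normalized signal and not turned back into reads, so no count model stands beside the limma results. With 3 libraries a group and members near 0 counts (Il1a, Il1b, Il6), the depth does not show modest differences.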
